A study of Homo sapiens with 18 samples.

Results

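The CCN and thrombospondin families were followed through 8 member genes in pleural mesothelioma cells given the TEAD inhibitor VT107. They were taken by symbol from a count table of 30954 genes covering 12 H2052 libraries. The CCN genes were CTGF (CCN2), CYR61 (CCN1), NOV (CCN3), WISP1 (CCN4) and WISP2 (CCN5), and the thrombospondin genes were THBS1, THBS2 and THBS3. A second table, of 19284 genes from H226 cells, had a row for 3 of the 8 members. H2052 and H226 are human pleural mesothelioma cell lines. PolyA RNA was sequenced from 6 groups of 3 libraries each, made from parental H2052 cells, NF1 mutant H2052 cells and H226 cells, each with 1 µM VT107 or with the same volume of DMSO for 24 h. The study made its NF1 mutant lines by giving cells Cas9 and a single guide RNA against NF1, with antibiotic selection. All cells grew in RPMI medium with 10% serum. The study calls its replicates biological, without saying how the cultures were kept apart, and p-values measure the spread between these libraries.

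Proteins of the CCN and thrombospondin families are matricellular. They are secreted, bind to integrins, proteoglycans and growth factors at the cell surface and in the matrix, and modulate adhesion and signalling more than they build structure. CTGF and CYR61 are among the best known target genes of YAP and TAZ, coactivators that bind DNA through TEAD transcription factors and are held back by the Hippo pathway. VT107 blocks the palmitoylation of TEAD proteins. NF1 encodes neurofibromin, a GTPase-activating protein that restrains RAS.

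The letters of the promoters are given first for the 3 members on which the VT107 results turn and for which RefSeq sequence was at hand. RefSeq promoters of build GRCh38.p14 were searched for 4 of the 8 members, CTGF, THBS1, THBS2 and THBS3. None was at hand for CYR61 and WISP2, and NOV and WISP1 were left out of the search. The motif counts therefore do not cover NOV, an expressed member not called under VT107. The 250 bases before the start are given 5′ to 3′ on the strand of the gene. Each GGAATG, the core motif read by TEAD factors, or its reverse complement CATTCC is in capitals. The CTGF stretch lies at chr6:131951373-131951622 on the minus strand, that of THBS1 at chr15:39580829-39581078 on the plus strand and that of THBS2 at chr6:169253847-169254096 on the minus strand.
CTGF: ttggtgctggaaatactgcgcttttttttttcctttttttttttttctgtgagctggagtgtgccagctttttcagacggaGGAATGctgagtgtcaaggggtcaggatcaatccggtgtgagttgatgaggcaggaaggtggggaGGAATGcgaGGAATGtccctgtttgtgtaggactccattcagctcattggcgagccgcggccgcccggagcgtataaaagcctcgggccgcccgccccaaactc
THBS1: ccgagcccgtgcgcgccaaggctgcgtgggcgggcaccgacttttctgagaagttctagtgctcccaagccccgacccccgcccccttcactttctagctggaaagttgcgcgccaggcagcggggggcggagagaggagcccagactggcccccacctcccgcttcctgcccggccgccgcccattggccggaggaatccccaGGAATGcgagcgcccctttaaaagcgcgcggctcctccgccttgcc
THBS2: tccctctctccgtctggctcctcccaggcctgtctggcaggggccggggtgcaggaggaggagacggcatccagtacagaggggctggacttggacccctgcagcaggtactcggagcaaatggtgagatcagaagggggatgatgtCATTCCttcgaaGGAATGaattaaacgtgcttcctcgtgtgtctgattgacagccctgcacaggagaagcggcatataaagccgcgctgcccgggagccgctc
The CTGF stretch held 3 matches, whose first letters lay 169, 104 and 95 bases upstream of the start. THBS1 held 1 match, 46 bases upstream. THBS2 held 2 matches in opposite orientation, CATTCC 103 bases and GGAATG 91 bases upstream. Neither of the 2 THBS3 promoters held one. Of 35116 promoters cut to the same length, 11.9% held at least 1 match on either strand, 0.94% at least 2 and 0.0826% at least 3. TGAGTCA, the motif of AP-1 factors, and its reverse complement TGACTCA were in none of the 5 stretches of the members and in 4.2% of all promoters. A match of one motif can share its TG with the other, which did not occur in these 5 stretches. A match describes the letters, and no binding was measured here.

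Levels are given as CPM, the counts of a gene scaled to a common library total, after TMM scaling over the 12 H2052 libraries. Counts per library summed to 10950284 to 13418485 in parental cells and to 3285363 to 5489092 in NF1 mutant cells. NF1 itself, the targeted gene, had 377 to 867 counts in parental cells in DMSO and 70 to 77 in NF1 mutant cells in DMSO, a log2 difference of -1.78 ± 0.27 (SE, adjusted p = 0.00229, edgeR quasi-likelihood test). In VT107 it had 361 to 853 counts in parental and 29 to 89 in NF1 mutant cells. The log2 difference there was -1.75 ± 0.46 and was not called (adjusted p = 0.141, edgeR). Parental libraries numbered 3 held 34.1 CPM of NF1 in DMSO and 26.0 CPM in VT107, against 55.2 to 67.1 CPM in the other parental libraries. The NF1 mutant VT107 replicate 1 library stood apart, with Spearman correlations of 0.754 to 0.846 to the other 11 libraries, against 0.972 to 0.988 among the other 5 NF1 mutant libraries. Both parental libraries numbered 3 correlated at 0.911 to 0.956 with the other parental libraries, which reached 0.983 to 0.994 among themselves. Results for the called members are therefore given with and without them. Of 10 mesothelial markers 9 had counts in every H2052 group, and KRT5 had 0 counts throughout. Their summed level of 785 to 1960 CPM came mostly from KRT18, a keratin at 618 to 1789 CPM. Of the rest CDH2 had the most counts, 116 to 1448 in a library. The lowest were UPK3B with 3 to 11, LRRN4 with 5 to 48 and CALB2 with 0 to 114 counts. Of 8 leukocyte markers, PTPRC, the pan-leukocyte antigen, had at most 3 counts in any library, and CD3E and MS4A1 had 0. The summed leukocyte level of 26.2 to 264 CPM came almost wholly from ITGB2 and CD68. The endothelial and platelet list summed to at most 0.865 CPM. In bulk RNA, fewer expressing cells and less RNA per cell cannot be told apart.

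**Figure D1:**
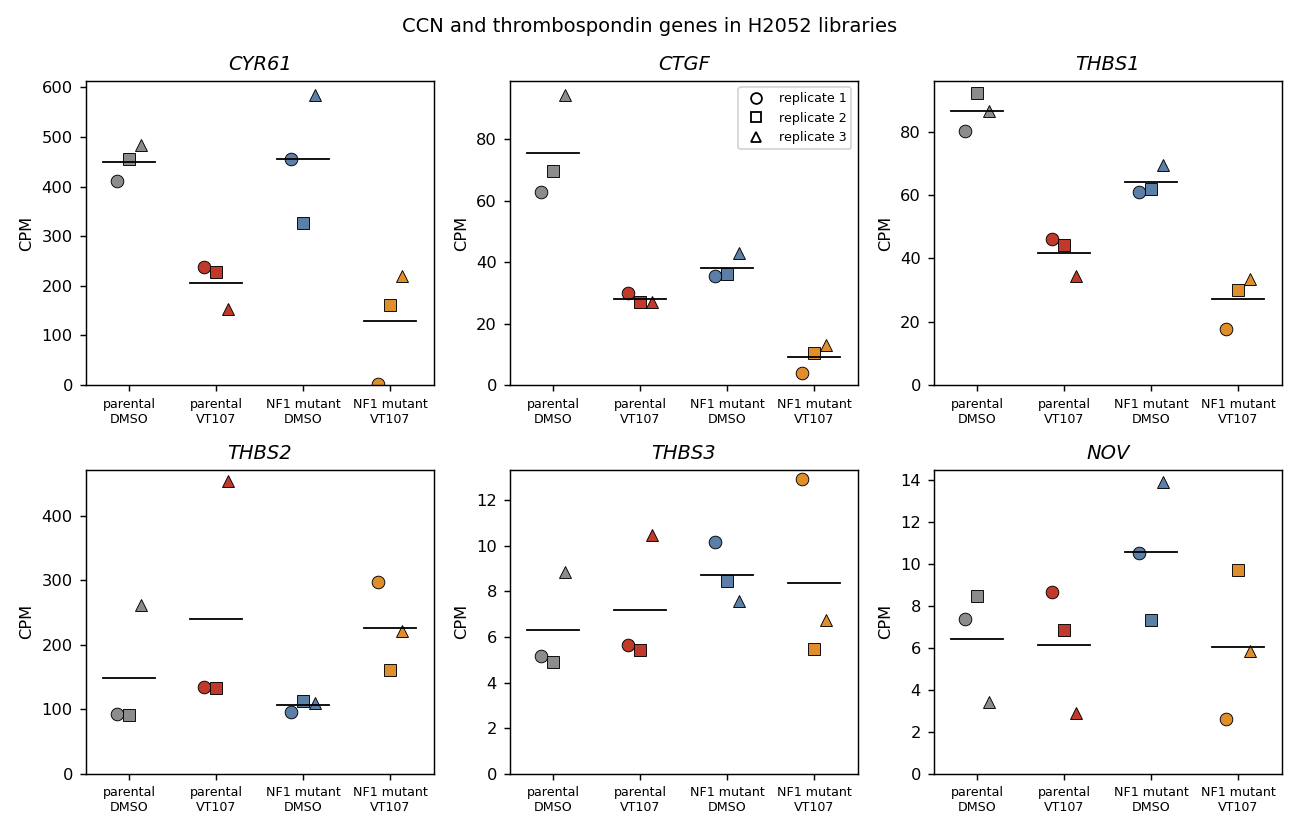
CPM of the 6 members with enough counts in each of the 12 H2052 libraries (y axes start at 0), with a marker shape for each replicate number and a line at the group mean. CYR61, CTGF and THBS1 were lower in all VT107 libraries than in all DMSO libraries of the same genotype, and CYR61 stood at 2.01 CPM in NF1 mutant VT107 replicate 1.

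In parental H2052 cells CTGF, CYR61 and THBS1 were lower and THBS2 was higher in VT107 than in DMSO when the replicate number was taken as a block. Without the number as a block, edgeR called 0 of 12891 genes (0%), with 474 at an unadjusted p under 0.05, and 0 of the 6 members tested. With the block it called 215 genes (1.67%), 109 higher and 106 lower, and 4 members. By the quality-weighted limma test without a block, 18 genes (0.14%) and 3 members, CTGF, CYR61 and THBS1, were called, and DESeq2 called 32 genes (0.248%) and 3 members. CTGF, NOV, WISP2 and all THBS members overlap an annotated gene on the opposite strand, and the strand setting of the counts is not stated. RP11-69I8.3 and CTD-2033D15.1, opposite CTGF and THBS1, had 0 counts in all 12 H2052 libraries. XXyac-YX65C7_A.2, opposite THBS2, was at 0.36 to 8.33 CPM, and MTX1, opposite THBS3, was at 30.7 to 102 CPM. Both edgeR fits are given side by side for each member, since libraries of the same number deviated together in parental cells.

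CTGF, a secreted regulator of matrix production and a standard readout of YAP/TAZ activity, is ENSG00000118523 at chr6:132269316-132272513 (hg19, minus strand). Its level was 62.9, 69.6 and 94.4 CPM in parental DMSO replicates 1 to 3 and 30.1, 27.1 and 27.0 CPM in VT107. The 3 VT107 libraries lay below all DMSO libraries and close to each other. The log2 fold change was -1.41 ± 0.20 (SE) without the block, at an adjusted p of 0.916, and -1.39 ± 0.14 with it, at an adjusted p of 0.00424 (edgeR). Without both libraries numbered 3 it was -1.17 ± 0.11, at an adjusted p of 0.012 in a fit that called 44 genes (0.329%).

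CYR61, an adhesive CCN protein that engages integrins, is ENSG00000142871 at chr1:86046444-86049645 (hg19, plus strand). It was read at 411, 456 and 483 CPM in parental DMSO libraries and at 238, 228 and 154 CPM in VT107. Again no VT107 library reached the lowest DMSO library. The log2 fold change was -1.11 ± 0.20 without the block (adjusted p = 0.999, edgeR) and -1.13 ± 0.16 with it (adjusted p = 0.0167). Without both libraries numbered 3 it was -0.86 ± 0.12 (adjusted p = 0.035).

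THBS1, a trimeric glycoprotein that activates latent TGF-β and binds CD47 and CD36, is ENSG00000137801 at chr15:39873280-39891667 (hg19, plus strand). Its levels were 80.3, 92.3 and 86.6 CPM in parental DMSO libraries and 46.0, 44.3 and 34.4 CPM in VT107, with no overlap. The log2 fold change was -1.04 ± 0.17 without the block (adjusted p = 0.984, edgeR) and -1.04 ± 0.12 with it (adjusted p = 0.00646). Without both libraries numbered 3 it was -0.90 ± 0.11 (adjusted p = 0.0271). CTGF, CYR61 and THBS1 made 3 members of 6 whose parental groups did not overlap, and 10.7% of the genes tested did not overlap between these groups.

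THBS2, a thrombospondin that inhibits angiogenesis, is ENSG00000186340 at chr6:169615875-169654139 (hg19, minus strand). It was read at 92.5, 90.9 and 261 CPM in parental DMSO libraries and at 134, 133 and 453 CPM in VT107. Its level followed the replicate number, with both libraries numbered 3 far above the rest, so the groups overlapped. Within each number the VT107 library was the higher, by 0.54, 0.55 and 0.80 on the log2 scale. The log2 fold change was 0.72 ± 0.63 without the block (adjusted p = 0.999, edgeR) and 0.65 ± 0.11 with it (adjusted p = 0.0255). Without both libraries numbered 3 it was 0.58 ± 0.10, at an adjusted p of 0.0712, and the call was lost. Leaving out VT107 replicate 3 alone, without a block, gave -0.14.

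**Figure D2:**
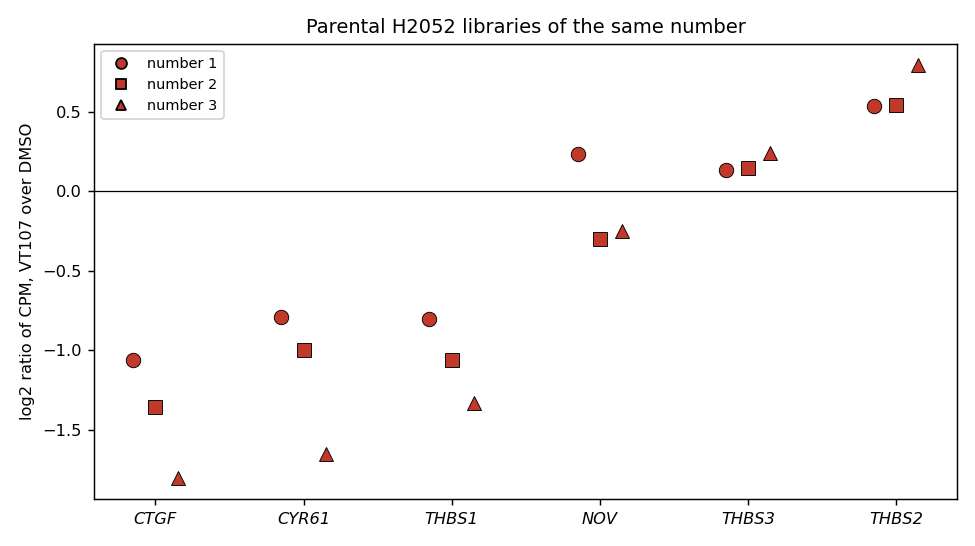
Log2 ratio of CPM (y axis) between the VT107 and DMSO libraries of the same number in parental H2052 cells for 6 members (x axis), 1 point for each number. CTGF, CYR61 and THBS1 lay below 0 for all 3 numbers, from -1.80 to -0.79, and THBS2 lay above 0 for all 3.

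THBS3 and NOV were low in every library. THBS3, a thrombospondin of cartilage and bone, is ENSG00000169231 at chr1:155165379-155178842 (hg19, minus strand). Its levels were 5.15, 4.91 and 8.86 CPM in parental DMSO libraries and 5.66, 5.45 and 10.4 CPM in VT107, with overlapping groups, and its log2 fold change was 0.20 ± 0.20 with the block (adjusted p = 0.64, edgeR). NOV, a CCN protein with antiproliferative effects in several cell types, is ENSG00000136999 on chromosome 8. It was read at 7.37, 8.47 and 3.43 CPM in DMSO and at 8.67, 6.88 and 2.88 CPM in VT107, with a log2 fold change of -0.07 ± 0.22 with the block (adjusted p = 0.898). Both libraries numbered 3 were again set apart, low for NOV and high for THBS3.

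WISP1 (ENSG00000104415) and WISP2 (ENSG00000064205), CCN genes named as targets of WNT signalling, were at or near 0. WISP1 had 0 counts in all 12 H2052 libraries, which allows levels of up to 0.21 to 0.88 CPM, depending on the library, if a count of 0 is read as at most 3. WISP2 had 2 counts in each of 3 libraries, parental DMSO replicate 2, parental VT107 replicate 1 and NF1 mutant VT107 replicate 1, and 0 in the other 9. Neither passed the filter on low counts. With no filter WISP2 entered the H2052 fits and was called in none of them. The limits given for WISP1 cover counting error alone.

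In NF1 mutant H2052 cells the same 3 members were lower in VT107 and THBS2 was higher. Most calls were made when the outlying library was left out or by the quality-weighted limma test. With all 6 libraries edgeR called 0 of 11605 genes (0%), with 612 at an unadjusted p under 0.05, and 0 of 6 members. DESeq2 called 20 genes (0.172%) and 1 member, CTGF. Without NF1 mutant VT107 replicate 1, edgeR called 198 genes (1.59%), 109 higher and 89 lower, and 4 members. With all libraries and quality weights, limma called 147 genes (1.27%) and 3 members, CTGF, THBS1 and THBS2. In the latter test CYR61 had a log2 fold change of -1.30 ± 0.35 at an adjusted p of 0.0875.

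CTGF was read at 35.5, 36.2 and 43.0 CPM in NF1 mutant DMSO libraries and at 4.02, 10.5 and 13.2 CPM in VT107. The log2 fold change was -2.04 ± 0.43 with all libraries (adjusted p = 0.774, edgeR) and -1.69 ± 0.20 without VT107 replicate 1 (adjusted p = 0.000255). CTGF thus stood lowest of all 4 H2052 groups in NF1 mutant cells with VT107, in each of the 3 libraries.

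CYR61 varied most between libraries. Its DMSO levels were 456, 328 and 584 CPM, and its VT107 levels were 2.01, 162 and 221 CPM, the first from 7 counts against 802 and 753 in the other two. The log2 fold change was -1.82 ± 1.13 with all libraries (adjusted p = 0.774, edgeR) and -1.24 ± 0.20 without VT107 replicate 1 (adjusted p = 0.00531). The group mean was 128 ± 113 CPM (SD, n = 3), so the spread was nearly as large as the mean.

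THBS1 was read at 60.8, 62.0 and 69.4 CPM in DMSO and at 17.8, 29.9 and 33.4 CPM in VT107. Its log2 fold change was -1.24 ± 0.30 with all libraries (adjusted p = 0.774, edgeR) and -1.01 ± 0.15 without VT107 replicate 1 (adjusted p = 0.00304). THBS2 was read at 95.3, 113 and 109 CPM in DMSO and at 297, 160 and 222 CPM in VT107, the highest of them in replicate 1. Its log2 fold change was 1.09 ± 0.28 with all libraries (adjusted p = 0.774) and 0.86 ± 0.15 without replicate 1 (adjusted p = 0.00614). The NF1 mutant groups of CTGF, CYR61, THBS1 and THBS2 did not overlap, 4 members of 6, where 16% of the genes tested did not overlap.

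NOV was read at 10.5, 7.33 and 13.9 CPM in NF1 mutant DMSO libraries and at 2.59, 9.71 and 5.86 CPM in VT107, with a log2 fold change of -0.78 ± 0.49 with all libraries and -0.39 ± 0.31 without replicate 1. THBS3 was read at 10.2, 8.44 and 7.58 CPM in DMSO and at 12.9, 5.46 and 6.74 CPM in VT107, with -0.08 ± 0.38 and -0.53 ± 0.29. Neither passed the test in either fit, and both pairs of groups overlapped.

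**Figure D3:**
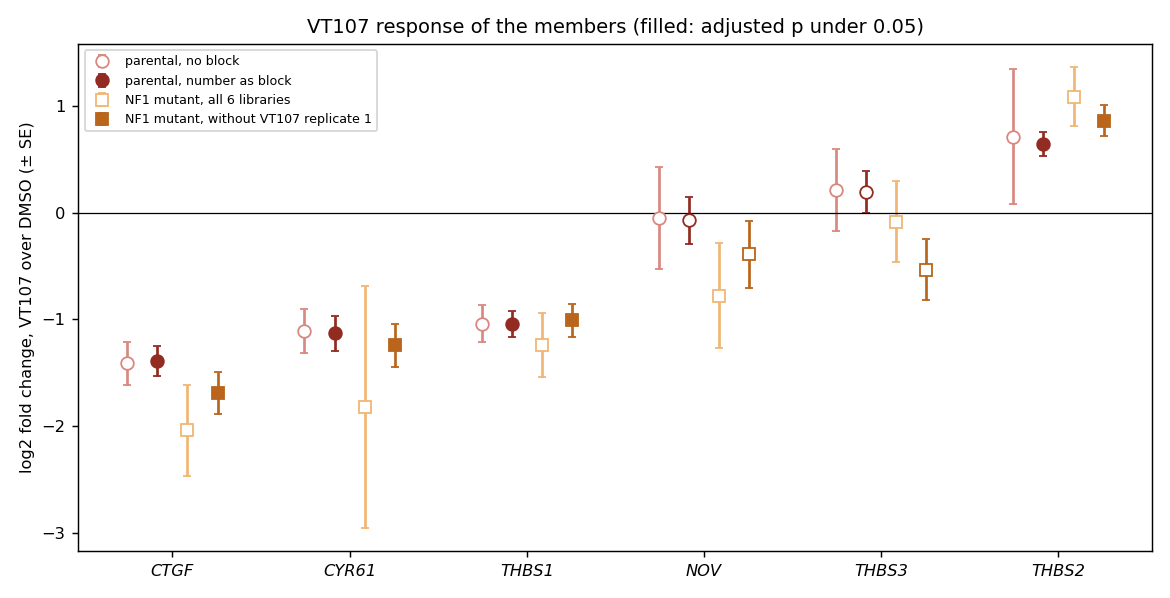
Log2 fold change of VT107 over DMSO (y axis, error bars are 1 SE) for 6 members (x axis) in parental cells without and with the replicate number as a block, and in NF1 mutant cells with and without VT107 replicate 1. Filled symbols passed an adjusted p of 0.05 (edgeR), which held for CTGF, CYR61, THBS1 and THBS2 in the blocked parental fit and in the NF1 mutant fit without replicate 1.

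The design asks whether the VT107 response differed between the genotypes. The edgeR test of the difference called 0 of 11432 genes (0%), with 78 at an unadjusted p under 0.05, and DESeq2 and quality-weighted limma also called 0, with 112 and 451 at an unadjusted p under 0.05. The log2 difference, NF1 mutant response minus parental response, was -0.62 ± 0.47 for CTGF, -0.70 ± 1.20 for CYR61, -0.19 ± 0.35 for THBS1 and 0.39 ± 0.71 for THBS2 (SE). Without NF1 mutant VT107 replicate 1 it was -0.27 ± 0.28, -0.12 ± 0.35, 0.04 ± 0.22 and 0.16 ± 0.76. With all libraries and the replicate number as a block within genotype, it was -0.74 ± 0.44, -1.44 ± 1.48, -0.22 ± 0.32 and 0.43 ± 0.34. With that block and without NF1 mutant VT107 replicate 1, it was -0.33 ± 0.27, -0.06 ± 0.25, 0.02 ± 0.21 and 0.14 ± 0.20. That fit was chosen after seeing the data and also called 0 genes. These errors leave room for differences of either sign, and the comparison does not show that the responses were alike.

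In DMSO, CTGF and THBS1 were called lower in NF1 mutant than in parental cells, and CYR61 was not called. In this comparison 3420 of 12475 genes were called (27.4%), 1557 higher and 1863 lower. The 2 members called of 6 are near that share, so the count is no trait of the members. The mean level of CTGF was 75.6 ± 16.6 CPM in parental and 38.2 ± 4.16 CPM in NF1 mutant cells (SD, n = 3), and the log2 difference was -0.98 ± 0.19 (adjusted p = 0.00579, edgeR). THBS1 was at 86.4 ± 5.99 and 64.1 ± 4.67 CPM, a log2 difference of -0.42 ± 0.13 (adjusted p = 0.0366). CYR61 was at 450 ± 36.5 and 456 ± 128 CPM, a log2 difference of 0.02 ± 0.19 (adjusted p = 0.941). THBS2, THBS3 and NOV differed by -0.48 ± 0.38, 0.49 ± 0.29 and 0.72 ± 0.36 on the log2 scale and did not pass the test.

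THBS1 lost its call when any 1 of 5 of the 6 libraries was left out, with adjusted p from 0.0569 to 0.144, while CTGF stayed called in all 6 such fits, with adjusted p from 9.95e-06 to 0.0408. Without parental DMSO replicate 3, 6409 genes were called (50.9%) and 3 members, and THBS3 was then higher in NF1 mutant cells by 0.81 ± 0.23 (adjusted p = 0.00671). CTGF and THBS1 were the 2 members of 6 whose DMSO groups did not overlap between the genotypes, with 44.6% of all genes tested doing so. In 1 fit of all 4 H2052 groups neither was called, with adjusted p of 0.0811 for CTGF and 0.305 for THBS1. THBS1 was also not called with the replicate block (adjusted p = 0.067, edgeR) or with no filter (adjusted p = 0.065, edgeR). The genotypes were also separate sets of libraries, as their names and depths show. MALAT1, a nuclear RNA, was at 2235 to 10020 CPM in parental and at 109 to 149 CPM in NF1 mutant libraries. NF1 mutant cells had also been given a guide RNA and antibiotic selection, and the paper describes no control guide for the RNA sequencing. Genotype, these steps and library set cannot be told apart.

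In VT107 the same order of the genotypes was seen for CTGF and THBS1. Their NF1 mutant VT107 libraries lay below all parental VT107 libraries, 2 members of 6, with 25.5% of the genes tested not overlapping. The log2 differences were -1.62 ± 0.46 (adjusted p = 0.155, edgeR) and -0.64 ± 0.36 (adjusted p = 0.398), and no gene was called of 11654 (0%), with 1945 at an unadjusted p under 0.05. DESeq2 called 682 genes (5.85%), with CTGF as the 1 member among them. Without NF1 mutant VT107 replicate 1 they were -1.26 ± 0.26 (adjusted p = 0.0654) and -0.40 ± 0.24 (adjusted p = 0.386). This comparison and the one in DMSO rest on different libraries, and the library sets differ between the genotypes in both.

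Other genes of the pathway were read from lists chosen with earlier results of these data known. Of 20 other YAP/TAZ-TEAD target genes 19 were tested in parental cells with the block. There 6 were called lower in VT107 and 0 higher, where 1.67% of all genes were called in either direction. The median log2 fold change was -0.53, against 0.00 over all genes tested. Without both libraries numbered 3 the counts were 4 and 0 of 19 and the median was -0.27, and without a block none was called and the median was -0.39. IGFBP3, an insulin-like growth factor binding protein, fell by 2.51 ± 0.21 on the log2 scale (adjusted p = 0.0015). ANKRD1, a nuclear ankyrin repeat protein, fell by 2.45 ± 0.42 (adjusted p = 0.026). F3, tissue factor, fell by 1.33 ± 0.22 (adjusted p = 0.0238), and AMOTL2, an angiomotin that binds YAP, fell by 1.08 ± 0.14 (adjusted p = 0.00834), a call that was lost without the libraries numbered 3 (-0.86 ± 0.15, adjusted p = 0.0752). In NF1 mutant cells without VT107 replicate 1 the median was -0.22, against 0.01 over all genes. Of 19 tested there, 4 were called lower and 0 higher, where 1.59% of all genes were called in either direction. They were IGFBP3 (-2.63 ± 0.18), ANKRD1 (-2.16 ± 0.22), AMOTL2 (-0.93 ± 0.15) and TGFB2, a ligand of the TGF-β family (-0.92 ± 0.18). With all 6 NF1 mutant libraries none of 18 was called. In DMSO 9 of 19 were called, all lower in NF1 mutant than in parental cells, where 27.4% of all genes were called in either direction, with a median of -0.59 against -0.01 over all genes. FJX1 (-2.17 ± 0.36), PTPN14 (-1.79 ± 0.34), ANKRD1 (-1.23 ± 0.15) and AMOTL2 (-1.15 ± 0.13) had the largest differences.

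Receptors of CCN and thrombospondin proteins were called in both directions under VT107. Of 17 listed, 14 were tested in parental cells with the block. There 1 was called higher and 1 lower, where 1.67% of all genes were called, and the median was 0.18. ITGB2, the β2 integrin chain, fell by 1.19 ± 0.15 on the log2 scale (adjusted p = 0.00834, edgeR) and ITGA5, the fibronectin receptor chain, rose by 0.71 ± 0.14 (adjusted p = 0.0445). Without both libraries numbered 3, ITGB2 was still called (-0.97 ± 0.13, adjusted p = 0.0345) and ITGA5 was not (0.49 ± 0.11, adjusted p = 0.135). ITGB2 is also on the leukocyte list, whose summed level was 39.9 to 264 CPM in parental DMSO and 26.2 to 146 CPM in VT107 libraries, and 220 to 229 and 63.2 to 107 CPM in NF1 mutant libraries, with PTPRC near 0 in all of them. In NF1 mutant cells without VT107 replicate 1, ITGB2 was again lower (-1.24 ± 0.12) and LRP1, an endocytic receptor for thrombospondins, was higher (0.74 ± 0.15). These calls were 1 lower and 1 higher of 14, where 1.59% of all genes were called, and the median was 0.17. In DMSO ITGA3 (1.40 ± 0.16) and SDC4 (0.64 ± 0.14) were higher and ITGB1 (-0.33 ± 0.10) lower in NF1 mutant than in parental cells, 3 of 14 called where 27.4% of all genes were. CD47, a receptor of THBS1, gave 0.16 ± 0.12 in the blocked parental fit and 0.25 ± 0.13 in the NF1 mutant fit, and passed neither test.

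No other matricellular gene was called under VT107 in H2052 cells in these fits. Of 12 listed, 6 were tested in parental cells with the block and none was called, with a median log2 fold change of 0.30, and none of 6 was called in NF1 mutant cells without VT107 replicate 1, with a median of 0.07. SPARC, a collagen-binding matricellular protein, gave -0.02 ± 0.11 and 0.07 ± 0.13. In DMSO, TNXB, a tenascin, was lower (-1.21 ± 0.36) and FBLN1, a fibulin, higher (0.64 ± 0.20) in NF1 mutant than in parental cells, 2 of 6 called, near the 27.4% of all genes. The remaining relatives WISP3, THBS4 and COMP were too low to be tested in H2052 cells. Of the mesothelial list, 7 genes were tested in parental cells with the block and none was called, with a median of -0.12.

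**Figure D4:**
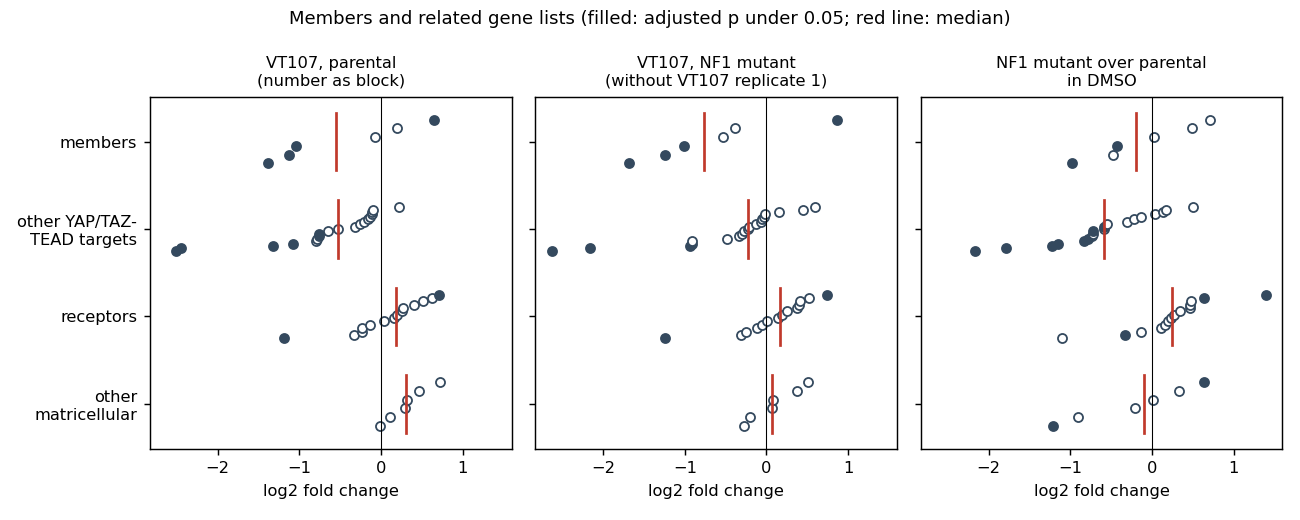
Log2 fold change (x axis) of each tested member and of each tested gene of 3 lists (y axis) for VT107 in parental cells with the number as block, VT107 in NF1 mutant cells without VT107 replicate 1, and NF1 mutant over parental cells in DMSO. Filled points passed an adjusted p of 0.05 and red lines are medians, which lay at -0.53, -0.22 and -0.59 for the other YAP/TAZ-TEAD targets.

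Genes with the most similar pattern over the 12 H2052 libraries were sought for each member at a mean of at least 8 CPM, as the smallest root mean square difference of log2 CPM centred on each gene's mean, among 9121 other genes. For CTGF they were AMOTL2 (0.38), COL12A1 (0.44) and COL8A1 (0.55), where the median over all genes was 1.21. For THBS1 they were DUSP14 (0.27), OGFRL1 (0.29) and DLG1 (0.30), with a median of 0.79. For THBS2 they were LPIN3, EMILIN3 and JUND (0.19 to 0.21), with a median of 0.87. For CYR61 they were RP1-20B21.4 (0.58), HNRNPM (0.66) and DTD1 (0.66), with a median of 2.01, and the low NF1 mutant VT107 replicate 1 library weighs on that measure. The libraries share line, depth by genotype and library set, so the likeness is a description.

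In H226 cells THBS2 was the 1 member that passed the filter, and it was not called. With VT107, 2501 of 12765 genes were called (19.6%), 1159 higher and 1342 lower. The authors chose the genes of this table by their own test, as given below, so the share is of a selected set. THBS2 was read at 156, 182 and 210 CPM in DMSO and at 162, 193 and 165 CPM in VT107 (TMM over the 6 H226 libraries), a log2 fold change of -0.07 ± 0.14 (adjusted p = 0.797, edgeR). The gene that overlaps it on the opposite strand, XXyac-YX65C7_A.2, was at 3566 to 6582 CPM in H226 and at 0.36 to 8.33 CPM in H2052 libraries. ACTB, a gene used by most cells, had 1 to 8 counts in H226 against 7146 to 31916 in H2052. Mesothelial markers went both ways in counts not scaled for depth. KRT18 had 0 to 5 counts in H226 against 3342 to 13586 in H2052. MSLN had 1488 to 1938 counts in H226 against 64 to 329, and UPK3B and CALB2 were also higher in H226. The raw count ranges of PDPN, WT1, CDH2, BNC1 and LRRN4 overlapped between the lines. Library totals were 1387223 to 1726786 counts in H226, below those of every H2052 library, so overlap in counts does not show like levels. Neither the kit nor the strand setting is named in the sources used here, so which strand the H226 rows count is not known. The cause of these values was not tested. All H226 values, fold changes included, are given as the table holds them, under the gene name of the row. THBS3 had 0 to 9 counts and WISP2 0 or 1 in the H226 libraries, neither called when no filter was set. CTGF, CYR61 and THBS1 had no row in the table used here, so their response in H226 cannot be read from it. The paper, describing both lines, names CTGF and CYR61 among the genes most lowered by VT107. Of the other YAP/TAZ-TEAD targets 7 of 14 tested were lower and 0 higher in H226, with a median of -0.68 against -0.01 over all genes tested, and F3 (-3.04 ± 0.27), CCDC80 (-1.78 ± 0.18), AXL (-1.75 ± 0.22) and LATS2 (-1.19 ± 0.15) had the largest log2 fold changes. No receptor of 14 was called there in the fit without a block, and of 8 other matricellular genes SPARC was lower (-0.49 ± 0.15). Of 8 mesothelial markers tested 4 were higher, the most for CALB2 (0.96 ± 0.13). WISP3 and THBS4 were tested in H226 and not called.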

How the data were processed

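RNA was extracted with Trizol and libraries were sequenced as single-end reads. The submitters' processing notes name bcl2fastq 2.20.0.422 and build hg19. The aligner and counter, the annotation release and the strand setting were not given in the sources used here. Raw counts per gene, deposited by the authors without normalization, were kept per replicate. The H226 table holds the genes whose corrected p in a DESeq comparison by the authors was under 1, and its fold change and p columns were not used. A further 16 columns of siRNA libraries matched no described sample and were not used. Rows with a repeated ID, 63 in the H2052 table and 10 in the H226 table, were summed.

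A gene entered a comparison where each of its libraries reached 0.5 CPM, and was tested with edgeR 4.0.16 (R 4.3.3) by the quasi-likelihood test on TMM-scaled counts, with Benjamini-Hochberg adjustment over all genes tested and a threshold of 0.05. SEs were taken as the size of the log2 fold change over the root of its F statistic. Alternatives were DESeq2 1.42.0, limma 3.58.1 (voomWithQualityWeights), RLE factors, other filters, a replicate block, all 4 H2052 groups in 1 fit and each library left out. Libraries of the same number deviated together in parental cells, with correlations of 0.488 to 0.795 between deviations from group means, and not in the other comparisons. Correlations were also positive between numbers 1 and 2, and number 3 stood apart from both. The block by number comes from that check, which did not show that 1 pairs with 1 and 2 with 2. No label names a shared day or batch. The edgeR test was also run on simulated data with 200 changed genes and the same spread for all genes. The simulation held no outlying library and no offset of number 3, so it cannot tell how the test does with them. No permutation test was used, since 3 against 3 libraries allow no exact two-sided p under 0.1. The members, the lists of genes and the rule on which genes to name (all members, the 3 genes most like each, up to 4 called genes of each list with the largest change, and NF1) were chosen with earlier results of these data known. ACTB, CD47, MALAT1, MSLN, MTX1, RP11-69I8.3, CTD-2033D15.1, SPARC in the VT107 comparisons of H2052 and XXyac-YX65C7_A.2 were named outside that rule, after their values were seen. The other mesothelial markers named for their counts were also named after these were seen. Promoter letters and positions are of GRCh38.p14, and gene positions are of hg19.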

Additional observations from a re-analysis of the deposited data

How the results depend on the processing

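Among VT107 responses of parental cells, the count of genes called moved from 0 to 32 with DESeq2, 18 with quality weights, 215 with the replicate block, 44 without both libraries numbered 3 and 374 with a block that separates number 3 from the others, the last of these and the fit without number 3 being chosen after seeing the data. The members called moved from 0 to 3, 3, 4, 3 and 4. In NF1 mutant cells 20 genes and 1 member were called with DESeq2, 147 and 3 with quality weights and 3 and 0 with all 4 groups in 1 fit, and leaving out 1 library gave 0 to 198 genes and 0 to 4 members, the higher count of each without VT107 replicate 1. For NF1 mutant against parental cells in DMSO, quality weights gave 6554 genes and the joint fit 963, and leaving out 1 library gave 1779 (without NF1 mutant replicate 1) to 6409 genes (without parental replicate 3) and 1 to 3 members. There 1 member was called with no filter, 1 with the replicate block and 0 in the joint fit. In VT107, DESeq2 called 682 genes, quality weights 3599, no filter 196 and the joint fit 1297, with 1 member each for DESeq2, quality weights and the joint fit, and leaving out 1 library gave 0 to 184 genes, 184 without NF1 mutant replicate 1, 82 without parental replicate 3 and 0 otherwise. In H226, leaving out 1 library gave 1646 (without VT107 replicate 3) to 2218 genes. The causes were not tested.

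Directions of some members turned, among them THBS2 in parental cells, which was called with the block. Leaving out 1 library gave log2 fold changes from -0.39 to 0.29 for NOV, -0.14 to 1.43 for THBS2 and -0.17 to 0.55 for THBS3 in parental cells, where NOV was at 0.012 without both libraries numbered 3, and from -0.53 to 0.15 for THBS3 in NF1 mutant cells. Between genotypes in DMSO it gave -0.19 to 0.22 for CYR61, which was at -0.0017 with a filter of 10 counts and at -0.0088 with the block, and -0.75 to 0.20 for THBS2, which was at 0.15 with quality weights. In VT107 it gave -0.56 to 0.35 for NOV, which was at 0.023 with DESeq2 and 0.029 with RLE factors, -0.41 to 0.73 for THBS2, which was at 0.47 with quality weights and 0.11 with the block, and -0.26 to 0.55 for THBS3. For the difference of responses it gave -0.36 to 0.041 for THBS1, which was at 0.015 with the block and without the outlying library, -0.28 to 1.23 for THBS2 and -0.73 to 0.086 for THBS3, and in H226 -0.17 to 0.044 for THBS2.

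Outside parental cells the number is only a label, with correlations of same-numbered libraries from -0.291 to 0.336. Not every library there correlated best with its own number. In parental cells the libraries numbered 2 correlated at 0.488 with each other, and at 0.517 and 0.607 with number 1 of the other treatment. Libraries numbered 3 correlated at 0.795. A shared offset of number 3 was thus seen in parental cells, while a match of 1 with 1 and of 2 with 2 was not shown. With the replicate block 0 genes were called in NF1 mutant cells, 2986 between genotypes in DMSO, 0 in VT107, 0 for the difference of responses and 3257 in H226, where 3 receptors were then called higher and 1 lower. Between genotypes in DMSO the block ended the calls of TNXB, FBLN1 and ITGB1, with adjusted p of 0.0616, 0.0807 and 0.0786 (edgeR). With 3 libraries a group, the low counts of NOV and THBS3 limit what could be seen of them.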
